A study of Mus musculus with 2 samples.

Results

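Expression of 48 regulators of apoptosis was examined in the RNA-seq profiles of mouse PGCs (primordial germ cells, from which sperm and oocytes later arise) at embryonic day 9.5 (E9.5). The members were taken by gene symbol from a list of Bcl2 family genes, caspases, genes of the p53 axis, death receptors and inhibitors. A row was found for 43 of the 48 symbols among the 18877 genes of the table. The other 5, Bak1, Bbc3, Hrk, Casp4 and Fas, were not analysed here, so the sums over effectors, BH3-only genes, death receptors and inflammatory caspases lack known members.

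The study profiled E9.5 PGCs as an in vivo reference for germ cell markers and imprinted genes. The PGCs came from C57BL6 embryos that received no treatment, were isolated through the surface antigen SSEA1, and form 1 group of 2 libraries numbered replicate 1 and replicate 2. They are described as biological repetitions but are not tied to embryos or litters, each was made from a pool of cells, and differences between them may be technical. The methods name the embryos as female, yet the Y-linked genes Ddx3y (7.32 and 5.35 TPM in replicates 1 and 2) and Uty (1.47 and 1.13 TPM) were above 0 in both libraries. All 9 PGC marker genes reached 1 TPM in both libraries, from a mean of 6.98 TPM for Prdm1 to 5044 TPM for Dppa3. Levels are given as TPM, a relative abundance in which the reads of a gene are divided by its length and set to the same sum in every library. Reads recovered from the values totalled 15912472 and 5458687 for replicates 1 and 2, so that replicate 1 was 2.92 times as deep.

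Apoptosis proceeds along a mitochondrial route, in which BH3-only proteins and the effectors Bax and Bak1 permeabilise the outer mitochondrial membrane against the hold of Bcl2-like proteins, and along a route that starts at death receptors on the cell surface. Cytochrome c released from mitochondria assembles with Apaf1 and caspase-9, and executioner caspases then cleave the cell's proteins unless inhibitor of apoptosis proteins (IAPs) bind them. PGCs migrate at this stage from the hindgut toward the genital ridges, and cells that stray from the path are known to die in a Bax-dependent manner.

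Members of the mitochondrial route differed widely in level. Cycs, which encodes somatic cytochrome c, lay at 1475 ± 18.6 TPM (SD, n = 2), while Bcl2, the founding anti-apoptotic gene, lay at 0.517 TPM in replicate 1 and 0.0980 TPM in replicate 2. At least 1 TPM in both libraries was reached by 26 of the 43 members (60.5%), against 60.0% of all genes in the table and 69.5% of its protein-coding genes. A further 8 members reached it in 1 library and 9 in neither, against 2845 and 4703 of all 18877 genes. Median log2(TPM + 1) over the members was 1.78 in replicate 1 and 1.86 in replicate 2, beside 1.89 and 1.85 over all genes. A mean of at least 20 TPM was found for 7 members, Cycs, Bag1, Vdac2, Aifm1, Bax, Mcl1 and Endog, which is 16.3% of the members and compares with 18.1% of all genes. At the other end 13 members (30.2%) had a mean under 1 TPM, against 31.7% of all genes. A value of 0 in at least 1 library was listed for 4 members, Bcl2a1b, Bik, Pmaip1 and Casp1 (9.30%, against 18.9% of all genes). Each of these shares over the members was close to that over the table or, for protein-coding genes and for zeros, below it. No test was made on a list.

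**Figure D1:**
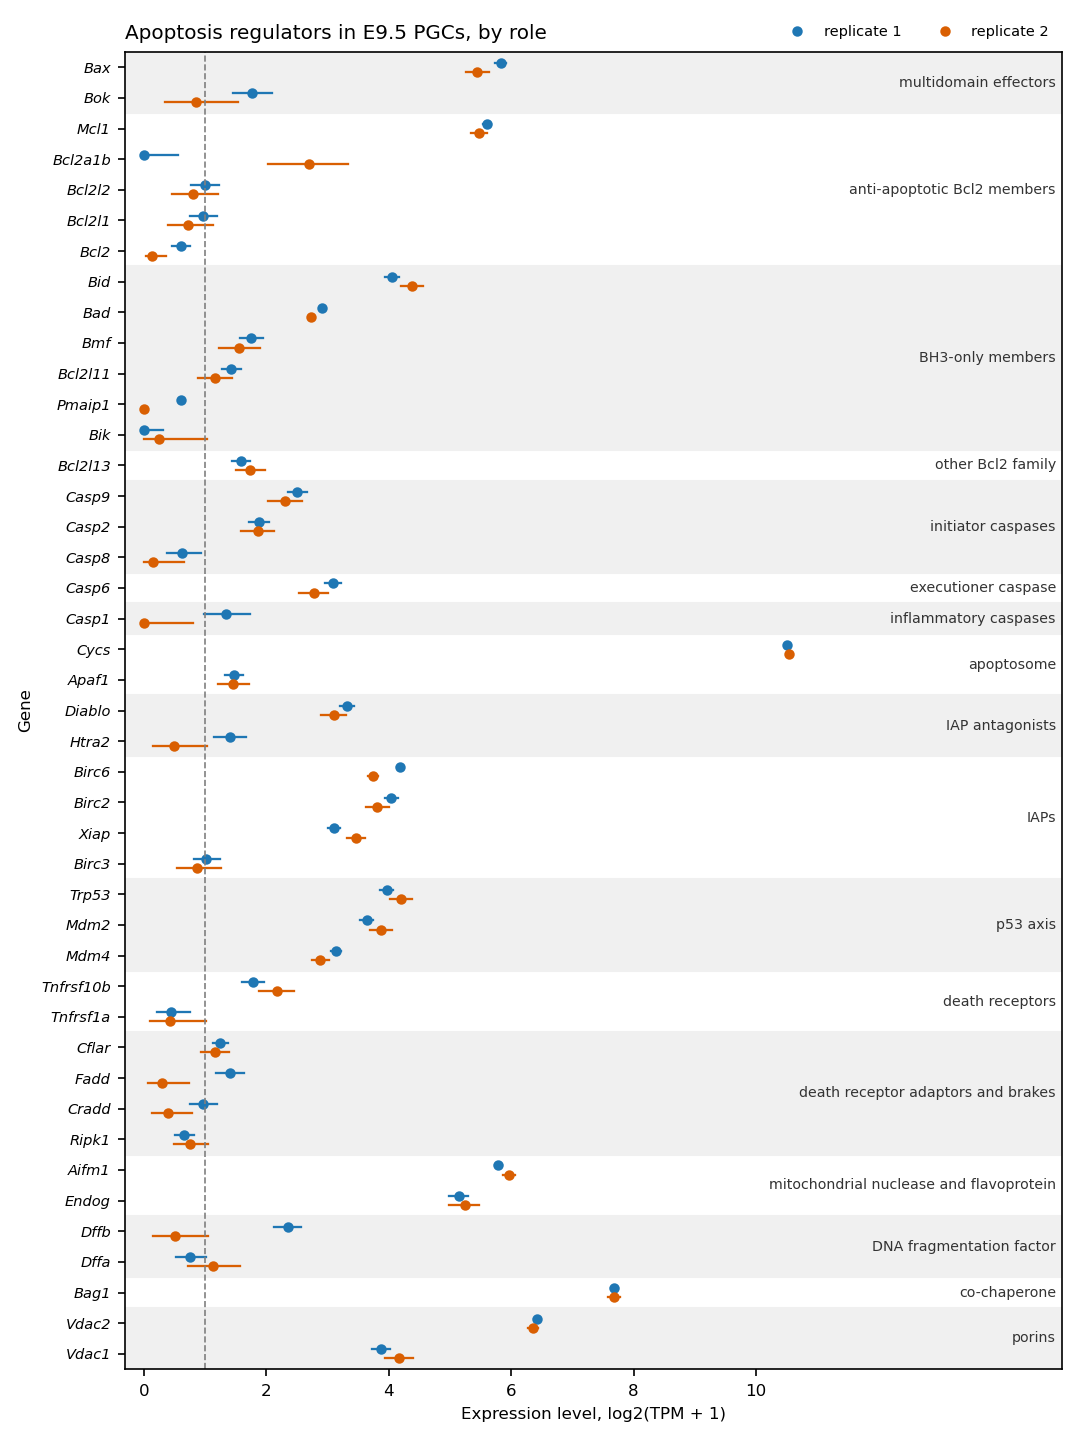
Expression level of the 43 apoptosis regulators in each library, as log2(TPM + 1) on the horizontal axis, with genes on the vertical axis grouped by role. Points are the 2 libraries, lines are exact 95% Poisson intervals of the recovered reads (not drawn for Bad and Pmaip1, whose reads were not recovered), and the dashed line marks 1 TPM. Cycs lies far to the right at 1475 TPM on average, and Mcl1 at 45.6 TPM stands apart from the other 4 anti-apoptotic genes.

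The upstream sequences of 4 members are shown because they belong to well expressed genes, Mcl1 and Cycs, and to genes listed at 0 in a library, Bcl2a1b and Casp1. Each is the 250 bases before the annotated start, 5′ to 3′ on the strand of the gene, from RefSeq on GRCm38.p6, with CpG dinucleotides in capitals. The Mcl1 stretch (chr3:95658471-95658720, + strand) holds 26 CpG and the Cycs stretch (chr6:50566570-50566819, − strand) holds 23. The Bcl2a1b stretch (chr9:89199023-89199272, + strand) holds 4, and the Casp1 stretch (chr9:5298267-5298516, + strand) holds 1.
Mcl1: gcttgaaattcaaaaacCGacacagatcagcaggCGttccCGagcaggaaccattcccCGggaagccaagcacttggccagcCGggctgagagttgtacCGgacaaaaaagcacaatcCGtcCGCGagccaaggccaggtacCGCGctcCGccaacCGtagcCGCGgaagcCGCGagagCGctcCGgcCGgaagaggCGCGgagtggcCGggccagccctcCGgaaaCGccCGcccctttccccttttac
Cycs: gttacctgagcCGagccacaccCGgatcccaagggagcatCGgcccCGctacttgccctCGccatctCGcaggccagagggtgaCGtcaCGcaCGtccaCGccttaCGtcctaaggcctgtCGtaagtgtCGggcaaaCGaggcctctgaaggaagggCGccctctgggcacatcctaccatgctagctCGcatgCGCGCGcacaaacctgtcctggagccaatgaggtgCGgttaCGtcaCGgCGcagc
Bcl2a1b: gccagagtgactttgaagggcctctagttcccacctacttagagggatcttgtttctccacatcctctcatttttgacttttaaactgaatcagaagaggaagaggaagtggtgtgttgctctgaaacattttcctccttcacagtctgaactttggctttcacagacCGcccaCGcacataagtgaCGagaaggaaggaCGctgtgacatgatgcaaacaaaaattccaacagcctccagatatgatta
Casp1: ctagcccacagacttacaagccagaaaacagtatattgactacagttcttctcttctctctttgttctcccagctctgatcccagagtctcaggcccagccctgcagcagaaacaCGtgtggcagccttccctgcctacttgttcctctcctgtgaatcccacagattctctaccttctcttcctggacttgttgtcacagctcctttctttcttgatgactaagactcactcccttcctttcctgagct

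Promoter windows of RefSeq, from 250 bases before to 50 after a start, were present for 38 of the 43 members, with 50 windows in all because some genes have several starts. Their ratio of observed to expected CpG had a median of 0.721 and ran from 0.0558 to 1.14. The median was 0.384 over all 32851 windows of the table and 0.567 over the 21263 windows of protein-coding genes. The ratio was 1.02 for Mcl1 and 1.01 for Cycs, but 0.247 for Bcl2a1b and 0.195 for Casp1. Other members did not follow this order of level, since the window of Bcl2, a gene under 1 TPM in both libraries, had a ratio of 1.02 and that of Trp53 one of 0.494. A CpG-rich window, with a GC content of at least 50% and a ratio of at least 0.6, was found for 32 of 50 (64.0%), against 33.5% of all windows and 45.1% of protein-coding ones. Among windows of members at 1 TPM or more in both libraries 69.7% of 33 were CpG-rich, and among those of the other members 52.9% of 17. The median ratios of these sets were 0.743 and 0.612.

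Motifs were searched on both strands of the 50 windows by exact letters, and windows of 1 gene can overlap. The GC box GGGCGG occurred in 62.0% of member windows, 35.7% of all windows and 46.2% of protein-coding ones. CCAAT occurred in 30.0%, 37.4% and 38.2%, respectively, and the TATA box core TATAAA in 8%, 13.6% and 12.6%. Member windows with TATAAA belonged to Cflar, Cradd, Trp53 and Xiap. The motif of the factor NRF1, taken as GCGC, any base and TGCGC in a row, was present in the windows of Bag1, Birc2 and Casp2 (6%, against 4.60% of all and 6.38% of protein-coding windows). The search by exact letters misses close variants, such as TCGCATGCGC in the printed Cycs stretch, which differs from the motif in its first letter. A match of letters shows no binding, and a missing match does not show that no site exists.

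**Figure D2:**
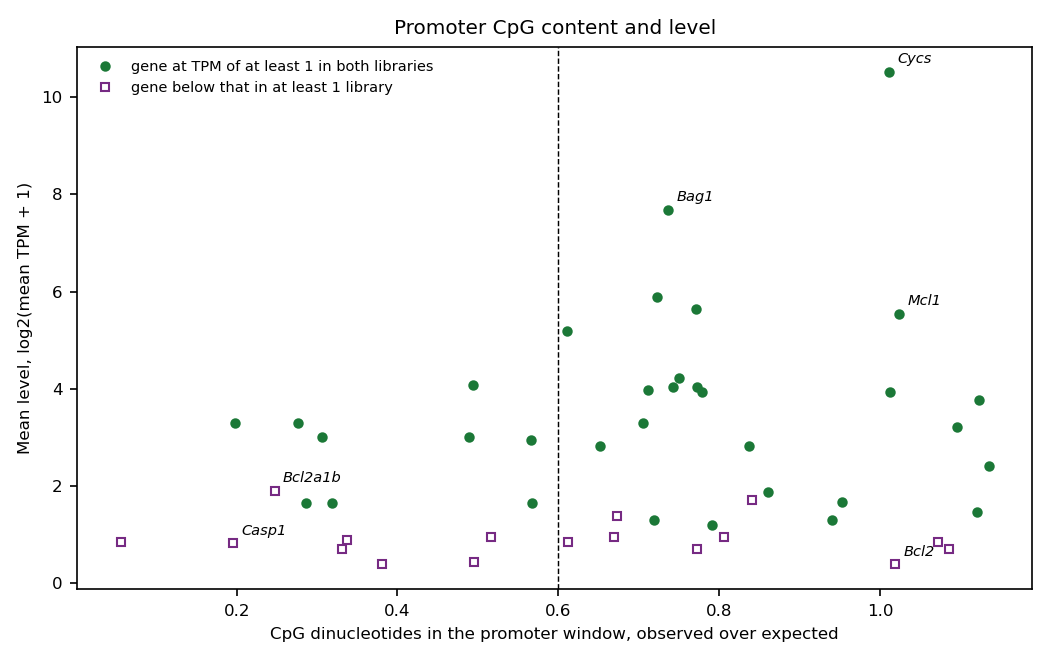
Mean level of the gene in both libraries, log2(mean TPM + 1), on the vertical axis, against the ratio of observed to expected CpG of each promoter window of 38 members on the horizontal axis, with several points for genes with several annotated starts. Filled circles are genes at 1 TPM or more in both libraries, open squares the others, and the dashed line marks a ratio of 0.6; Mcl1 (1.02) and Cycs (1.01) lie to the right, and Bcl2a1b (0.247) and Casp1 (0.195) to the left.

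Among the multidomain effectors, which form the pores in the outer mitochondrial membrane, Bax (chr7:45461697-45466898) was read at 55.8 TPM in replicate 1 (836 reads, interval 52.1 to 59.7) and 42.7 TPM in replicate 2 (225 reads, 37.3 to 48.7). The intervals are exact 95% Poisson intervals in TPM and cover counting error only. They did not overlap for Bax, which was lower in replicate 2. The effector-like gene Bok stood at 2.40 TPM (42 reads, 1.73 to 3.25) and 0.813 TPM (5 reads, 0.264 to 1.90), with overlapping intervals. Bax exceeded Bok 23.2-fold in replicate 1 and 52.5-fold in replicate 2. Of the exonic bases of Bax, 192 also lie in Gm45808 on the same strand, itself listed at 50.4 and 36.4 TPM, and how reads of both were divided is not stated.

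Mcl1, a short-lived inhibitor of Bax and Bak1, supplied most of the anti-apoptotic transcripts. Its level was 47.7 TPM in replicate 1 (1550 reads, 45.4 to 50.1) and 43.6 TPM in replicate 2 (498 reads, 39.8 to 47.6), and none of its 50-base stretches occurs in another gene's transcript. Bcl2l1, which encodes Bcl-xL, was read at 0.963 TPM (42 reads, 0.694 to 1.30) and 0.652 TPM (10 reads, 0.313 to 1.20). Mcl1 thus lay above Bcl2l1 49.5-fold and 66.8-fold in replicates 1 and 2. Bcl2l2, which encodes Bcl-w, stood close to Bcl2l1 at 0.990 TPM (42 reads) and 0.737 TPM (11 reads). It shares 594 exonic bases on the same strand with Gm20521, listed at 158 and 166 TPM. Bcl2 was supported by 45 reads in replicate 1 (0.377 to 0.692 TPM) and 3 in replicate 2 (0.0202 to 0.286 TPM), and these intervals did not overlap. Summed over its 5 genes, the anti-apoptotic role held 50.2 and 50.6 TPM, of which all but 4.72 TPM on average came from Mcl1. The sum includes Bcl2a1b, at 0 TPM in replicate 1 and 5.49 TPM in replicate 2, and the assignment of its reads is uncertain.

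Bcl2a1b, an anti-apoptotic gene known from blood cells, differed most between the libraries among the members. It was at 0 TPM in replicate 1, where 0 reads give an upper bound of 0.475 TPM, and at 5.49 TPM in replicate 2 (15 reads, 3.07 to 9.06). Of its 50-base stretches, 79.2% occur in another gene, among them its near-identical neighbours Bcl2a1d and Bcl2a1a, and 401 of its exonic bases lie in Gm29094 on the same strand. Gm29094 was listed at 190 and 210 TPM, and Bcl2a1d at 0.609 TPM (5 reads) and 4.16 TPM (12 reads). The assignment of reads to Bcl2a1b is therefore uncertain.

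The BH3-only genes, which sense damage and relay it to the effectors, were led by Bid, the link between death receptors and mitochondria. Bid was measured at 15.6 TPM (527 reads, 14.3 to 17.0) and 19.8 TPM (235 reads, 17.3 to 22.5), with intervals that did not overlap. On the opposite strand Bcl2l13 shares 628 exonic bases with Bid, which matters if counting ignored strand, and was itself at 2.01 and 2.34 TPM. Bad, which binds Bcl-xL and responds to survival signalling, stood at 6.55 and 5.66 TPM. Bmf (2.38 and 1.94 TPM) and Bcl2l11, which encodes Bim (1.69 and 1.23 TPM), were lower but above 1 TPM in both libraries. Pmaip1, the p53 target known as Noxa, was listed at 0.517 TPM in replicate 1 and at 0 in replicate 2, and its values were not whole reads. Bik had 0 reads in replicate 1 (up to 0.244 TPM) and 1 read in replicate 2 (0.188 TPM, 0.00476 to 1.05). The 6 BH3-only genes in the table summed to 27.8 ± 1.46 TPM (SD, n = 2).

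Transcripts of the apoptosome were unequal. Cycs (chr6:50562563-50566538) was read at 1462 TPM (47292 reads) and 1488 TPM (16932 reads), at the 99.5th and 99.4th percentile of all genes, and carried 69.3% and 70.2% of the summed TPM of the 43 members. Apaf1, the scaffold of the complex, stood at 1.77 TPM (152 reads, 1.501 to 2.08) and 1.76 TPM (53 reads, 1.32 to 2.30), so that Cycs exceeded it 825-fold and 847-fold. Cycs also serves respiration, and of its 50-base stretches 25.9% occur in at least 1 of 43 other genes. The copy with the most shared stretches, Gm10053 on chromosome 19, was itself listed at 678 and 702 TPM. How reads that map to several places were treated is not stated, so the level of Cycs is uncertain.

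Caspases were expressed at low levels. Casp9, the initiator of the apoptosome, was at 4.68 TPM (231 reads, 4.09 to 5.32) and 3.97 TPM (69 reads, 3.09 to 5.03). Casp2, the initiator of the PIDDosome, was at 2.68 and 2.63 TPM. Casp8, the initiator used by death receptors, was at 0.545 TPM (15 reads, 0.305 to 0.8996) and 0.103 TPM (1 read, 0.00262 to 0.576). In both libraries Casp9 was the highest and Casp8 the lowest of these initiators, and the intervals of Casp8 overlapped between libraries. The executioner Casp6 was read at 7.50 and 5.84 TPM. The inflammatory caspase Casp1, which processes interleukin-1 beta, had 22 reads in replicate 1 (1.55 TPM, 0.969 to 2.34) and 0 in replicate 2 (up to 0.737 TPM).

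The IAPs bind or ubiquitylate caspases and signalling proteins. Among the 4 IAPs of the list Birc6, a very large ubiquitin ligase, had the highest mean, at 17.1 TPM (4186 reads, 16.6 to 17.6) and 12.4 TPM (1071 reads, 11.7 to 13.2), and was lower in replicate 2 with intervals apart. Birc2, which encodes cIAP1, was at 15.5 and 13.1 TPM, below Birc6 in replicate 1 and above it in replicate 2, and 15.04-fold and 15.6-fold above its neighbour Birc3. Birc3, which encodes cIAP2, was the lowest of the 4 at 1.03 TPM (49 reads, 0.761 to 1.36) and 0.836 TPM (14 reads, 0.457 to 1.40). Outside the list, and named after its values were seen, the family member Birc5, which acts mainly in cell division, was higher than all of these at 103 TPM in each library. The X-linked Xiap, the direct caspase inhibitor, was at 7.59 TPM (683 reads, 7.03 to 8.18) and 10.01 TPM (317 reads, 8.94 to 11.2), higher in replicate 2 with intervals apart. Its antagonist Diablo, released from mitochondria, was at 8.97 TPM (526 reads, 8.22 to 9.77) and 7.57 TPM (156 reads, 6.43 to 8.85). The order of Diablo and Xiap differed between libraries, with ratios of 1.18 and 0.756. Htra2, the other antagonist, had 46 reads in replicate 1 (1.64 TPM) and 4 in replicate 2 (0.406 TPM). Exons of other genes cover 40.9% of Diablo, partly by Gm49027 on the same strand, and 43.7% of Htra2, all on the opposite strand.

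The p53 axis was expressed at a moderate level. Trp53, which encodes p53 (chr11:69580359-69591873), was at 14.6 TPM (562 reads, 13.4 to 15.9) and 17.4 TPM (235 reads, 15.2 to 19.7), with overlapping intervals. Mdm2, the ligase that degrades p53 and is itself induced by it, was at 11.5 TPM (554 reads, 10.5 to 12.5) and 13.7 TPM (232 reads, 11.95 to 15.5). The ratio of Mdm2 to Trp53 was 0.784 and 0.786 in replicates 1 and 2. Mdm4, which blocks p53 without degrading it, was the lowest of these genes at 7.80 TPM (1097 reads, 7.34 to 8.27) and 6.37 TPM (315 reads, 5.68 to 7.11), with intervals apart.

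Genes of the death receptor route were low. Tnfrsf10b, the mouse receptor for TRAIL, was the higher receptor at 2.43 TPM (126 reads, 2.03 to 2.90) and 3.51 TPM (64 reads, 2.70 to 4.48). Tnfrsf1a, the TNF receptor with a death domain, had 9 and 3 reads (0.365 TPM, 0.167 to 0.694, and 0.346 TPM, 0.0714 to 1.01). Fadd, the adaptor that recruits caspase-8, was at 1.64 TPM (61 reads, 1.26 to 2.11) and 0.230 TPM (3 reads, 0.0474 to 0.672). Cradd, an adaptor for caspase-2, was at 0.951 TPM (43 reads) and 0.314 TPM (5 reads). Cflar, which encodes the caspase-8 brake c-FLIP, was at 1.38 TPM (166 reads, 1.18 to 1.60) and 1.23 TPM (52 reads, 0.917 to 1.61). Ripk1, a kinase that can turn receptor signals to survival or death, was the lowest of the adaptors and brakes on average at 0.580 TPM (46 reads, 0.425 to 0.774) and 0.681 TPM (19 reads, 0.410 to 1.06). Only Fadd differed between libraries with intervals apart among these 6 genes.

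Several mitochondrial genes with roles outside cell death stood among the highest members. Aifm1, an X-linked flavoprotein needed for respiration, was at 54.4 and 61.5 TPM, and Endog, a mitochondrial nuclease, at 34.3 and 36.9 TPM. Spout1, on the opposite strand, and Endog share 35.7% of the exonic bases of Endog. The porin Vdac2, which holds Bak1 in check, was at 85.0 and 81.2 TPM and exceeded Vdac1 (13.7 and 17.0 TPM) 6.21-fold and 4.77-fold. The co-chaperone Bag1 had 205 TPM in each library (2629 and 923 reads). The nuclease of the DNA fragmentation factor, Dffb, had 112 reads in replicate 1 (4.10 TPM, 3.37 to 4.93) and 4 in replicate 2 (0.416 TPM, 0.113 to 1.07). Its inhibitor and chaperone Dffa had 23 reads (0.683 TPM, 0.433 to 1.03) and 14 reads (1.18 TPM, 0.647 to 1.98).

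Ordered by mean level, the members form 42 pairs of neighbours. In 10 pairs both values of the higher gene lay above both values of the lower, and in the other 32 the values overlapped. Cycs, Bag1 and Vdac2 were each separated from the next gene in that order, whereas Aifm1 and Bax, and Bax and Mcl1, overlapped. Mcl1 lay above Endog and Endog above Bid, but within the run of Bid, Trp53, Vdac1, Birc6, Birc2 and Mdm2 the values of neighbours overlapped.

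Ratios of opposing or cooperating partners were formed within each library, so that scaling cancels out. Of 16 pairs listed, 13 could be computed and 3 involved Bak1. The summed anti-apoptotic genes stood to the summed effectors at 0.862 in replicate 1 and 1.16 in replicate 2, on either side of 1. Against the summed BH3-only genes they stood at 1.88 and 1.75. Both ratios include Bcl2a1b, which was at 0 in replicate 1 and whose reads are uncertain in assignment. Bcl2l1 reached 0.0173 and 0.0153 of the level of Bax. Xiap stood to Casp9 at 1.62 and 2.52, Apaf1 to Casp9 at 0.379 and 0.442, and Mdm2 to Mdm4 at 1.47 and 2.14. Wider differences between libraries were found for Cflar to Casp8, at 2.53 and 11.9, and for Dffa to Dffb, at 0.167 and 2.84, the last on either side of 1. In replicate 2 Casp8 had 1 read and Dffb 4. Dffb had 112 reads in replicate 1, and its intervals lay apart. Pmaip1 stood to Mcl1 at 0.0108 in replicate 1 and at 0 in replicate 2.

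**Figure D3:**
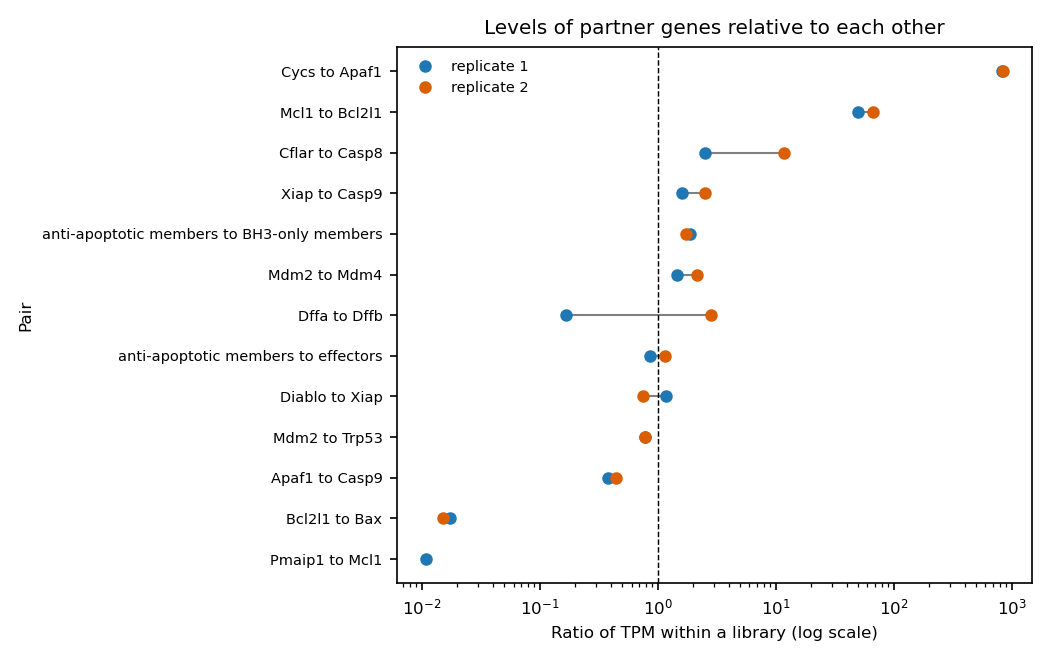
Ratio of TPM between partners within each library, on a log axis, with 1 point per library for each of the 13 pairs, a grey line joining both, and a dashed line at 1. The value of Pmaip1 to Mcl1 in replicate 2 is 0 and is not drawn. Mdm2 to Trp53 is nearly the same in both libraries (0.784 and 0.786), while Dffa to Dffb (0.167 and 2.84) falls on either side of 1.

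Between the libraries, a difference of more than 2-fold on the log2(TPM + 1) scale, which understates differences of low genes, was found for 4 of 43 members (9.30%), against 10.2% of all genes. Lower in replicate 2 were Dffb, by -1.85, Casp1, by -1.35, and Fadd, by -1.10 (3 members, 6.98%, against 5.89% of all genes). Bcl2a1b was higher by 2.70 (1 member, 2.33%, against 4.31%). With at least 100 reads in both libraries together only Dffb remained, 1 of 27 members (3.70%), against 2.59% of such genes. Exact Poisson intervals lay apart for 12 of 41 members (29.3%), against 24.1% of all genes, and for 7 of 26 with at least 100 reads (26.9%), against 35.3%. A lower value in replicate 2, of any size of difference, was listed for 29 members (67.4%), against 51.3% of all genes. The latter share includes 1474 genes at 0 in both libraries, whereas no member was at 0 in both. In replicate 2, 10 members rested on fewer than 10 reads, against 3 in replicate 1. No share over all genes is given for this count, so it does not set the members apart from other genes. Depth differed between the libraries, and its part in these differences was not tested.

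**Figure D4:**
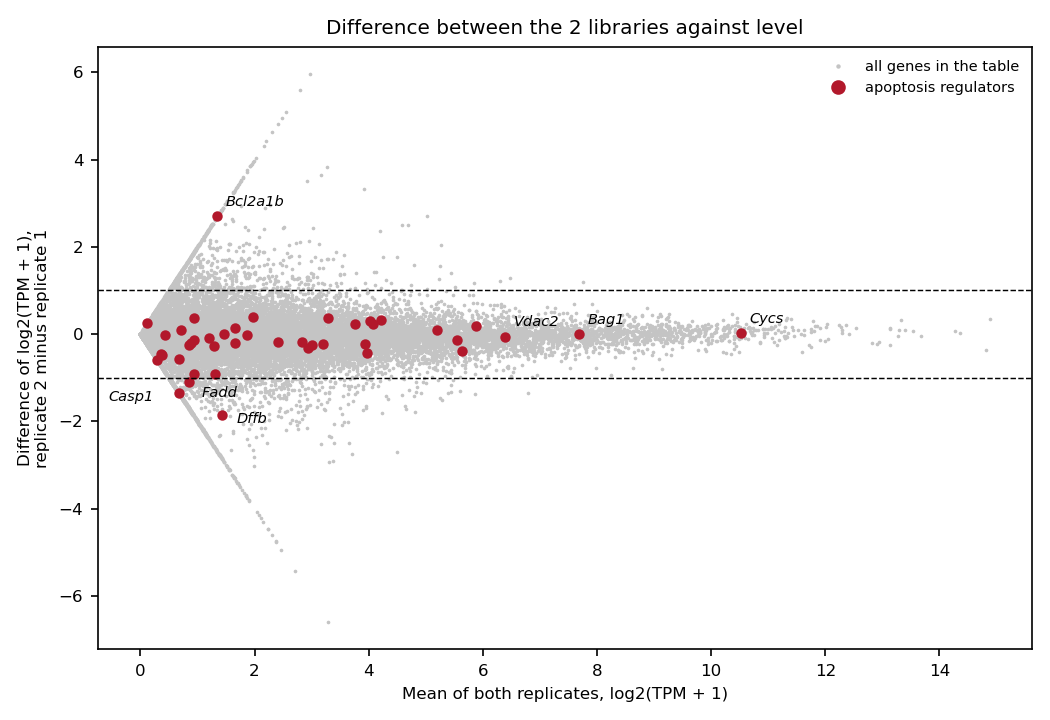
Difference in log2(TPM + 1), replicate 2 minus replicate 1 (vertical axis), against the mean of both (horizontal axis), for all 18877 genes in grey and the 43 members in red. Dashed lines mark 2-fold. Bcl2a1b lies above the upper line at 2.70, and Fadd, Casp1 and Dffb lie below the lower line, all at low mean levels.

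The other genes of the pathway were taken from lists by symbol, of which 48 of 61 had a row and 40 reached 1 TPM in both libraries. These lists include Nanos3, Dnd1 and Kit, which are also among the PGC marker genes. For comparison, 60.0% of all genes and 69.5% of protein-coding genes reached 1 TPM in both libraries. Of the further apoptosis genes 23 of 27 did so, led by Bcap31 (338 ± 66.2 TPM), a protein of the endoplasmic reticulum, Pdcd10 (294 ± 43.1 TPM) and Hax1 (238 ± 17.6 TPM). The lowest were Tnfsf10, which encodes TRAIL (0.0384 ± 0.0260 TPM), Tnfrsf21 (1.04 ± 1.36 TPM) and Traf2 (1.38 ± 0.123 TPM). Of 14 p53 targets outside the members 11 reached 1 TPM in both libraries. Gadd45a (28.4 ± 11.2 TPM), Tigar (18.4 ± 0.283 TPM) and Ccng1 (14.97 ± 1.72 TPM) were highest, and Zmat3 (1.02 ± 0.221 TPM), Plk2 (0.914 ± 0.728 TPM) and Eda2r (0.798 ± 0.841 TPM) lowest.

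Regulators of germ cell survival ranged from high to low levels. Nanos3, an RNA-binding protein that protects migrating PGCs from apoptosis, was at 473 and 453 TPM, and its fellow RNA-binding protein Dnd1 at 37.0 and 33.6 TPM. Tial1, a further RNA-binding protein, was at 30.3 and 26.1 TPM. The survival receptor Kit was at 8.84 and 7.96 TPM, its ligand Kitl, a product of surrounding cells, at 2.78 and 1.27 TPM, and the homing receptor Cxcr4 at 1.69 and 0.331 TPM. Each of these genes was lower in replicate 2.

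Markers of other cell types that the isolation could carry along were also present. The 6 erythroid markers in the table (of 8 listed) summed to 3983 and 3765 TPM, led by the embryonic globin Hba-x at 2198 TPM on average. The 4 macrophage markers (of 6 listed) summed to 19.4 and 9.53 TPM, led by Fcer1g at 8.56 TPM. All 4 were lower in replicate 2, where C1qb was at 0, as was Casp1, a gene known from myeloid cells. Bcl2a1b, likewise known from blood cells, moved the other way. The 5 endothelial markers (of 6 listed) summed to 12.9 and 11.0 TPM, led by Pecam1, a gene that PGCs also express, at 9.11 TPM. Pecam1 was higher in replicate 2, whereas the other 4 were all lower there and summed to 4.71 and 1.01 TPM, with Emcn at 109 reads in replicate 1 and 0 in replicate 2. The 3 gut endoderm markers (of 5 listed) summed to 1.47 and 2.29 TPM, led by Cldn6 (1.63 TPM) and with Foxa1 at 0 in both libraries. The 5 mesenchyme markers (of 6 listed) summed to 2.37 and 3.95 TPM, led by Col3a1 (1.23 TPM) and with Lum at 0 in both. The part of these cells in the levels of the members was not tested. In bulk RNA of this kind, fewer cells of a type and less RNA per cell cannot be told apart.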

How the data were processed

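RNA-seq of 2 E9.5 PGC libraries, 1 group, was analysed from the table of TPM values that the authors deposited. According to the methods the authors aligned reads to mm10 with Hisat2 and counted them per gene with featureCounts. The submitters' processing notes also list Bowtie2, RSEM and R 3.4.2 with no role. The annotation, strand handling and treatment of reads mapping to several places are not given in the sources used here. The methods describe Smart-seq2 cDNA, whereas the labels name another library kit, so the chemistry is uncertain.

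Symbols were matched to GENCODE M21 (assembly GRCm38, which is mm10), giving 18748 genes with a length and 129 without. TPM multiplied by exonic length gave whole multiples of 1 amount per library, taken as 1 read. Among values under 50 reads, 96.7% and 95.8% lay no more than 0.02 from a whole number, where chance gives 4%. Recovery was tested on simulated data made with the same gene lengths. That test could not show whether the lengths used by the authors were the same. Recovery gave the depths and the exact 95% Poisson intervals, which cover the counting error of reads only. No molecular identifiers were used, so the intervals count reads and not molecules. Reads of Bad and Pmaip1 were not whole. The tolerance of this check on single genes widened with the number of reads. For Cycs, with 47292 and 16932 reads, any value would have passed, so its reads were not checked in this way. Promoter windows came from RefSeq on GRCm38.p6, and 45 of 50 member windows had their downstream end in a GENCODE transcript of the gene. Overlap was computed over exons of GENCODE genes on either strand, and shared sequence over stretches of 50 bases of their transcripts.

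With 1 group no test between groups was possible and no p-value was computed. Levels were summarised as mean ± SD and medians of log2(TPM + 1), and 2-fold means a difference of 1 on that scale. Full values were given for the highest and lowest member of each role with 3 or more genes, every gene of a partner ratio and every member differing more than 2-fold. Of the other pathway genes, lists of 10 or fewer were given gene by gene, and the 3 highest and 3 lowest genes of longer ones. Values of some single genes covered by these lists are not reported here. Members, lists and rules were chosen with earlier results of these data known. Detection by recovered reads, thinning, the minimum of 100 reads and the protein-coding background were chosen after seeing the data. Software was Python 3.11.15, scipy 1.17.1, pandas 2.3.3, numpy 2.4.6 and matplotlib 3.10.9.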

Additional observations from a re-analysis of the deposited data

How the results depend on the processing

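Of 127 alternative values for 34 results, 62 were means without a replicate, which with 2 libraries always lie within 1 SD of the mean and so show nothing about stability. Of the other 65, 25 moved by less than the spread between replicates or, for counts, stayed within 1.5 times, and 40 moved further. Without replicate 1 and without replicate 2 the ratio of Dffa to Dffb was 2.84 and 0.167, that of Cflar to Casp8 11.9 and 2.53, and the sum of Dffa and Dffb 1.60 and 4.78 TPM. The count of 26 members at 1 TPM in both libraries was 32, 22 and 18 at minimums of 0.5, 2 and 5 TPM, 28 and 32 without replicate 1 and without replicate 2, 30 by at least 10 reads in both libraries, and 26 with replicate 1 thinned to the depth of replicate 2. The median over the members was 1.39 with a pseudocount of 0.1, 3.05 over members at a mean TPM of at least 1, and 2.07 after TPM was recomputed without genes under 200 exonic bases and mitochondrial genes. That scaling multiplied every value by 1.27 in replicate 1 and 1.26 in replicate 2, so role sums became 64.1 TPM (effectors), 63.5 (anti-apoptotic), 35.0 (BH3-only), 2.74 (Bcl2l13), 9.21 (initiator caspases), 8.41 (Casp6), 1861 (apoptosome), 11.7 (IAP antagonists), 48.9 (IAPs), 44.9 (p53 axis), 4.19 (death receptors), 118 (Aifm1 and Endog), 258 (Bag1) and 124 (porins). Without the highest member of each role the sums were 1.61 TPM (effectors), 4.72 (anti-apoptotic), 10.1 (BH3-only), 2.98 (initiator caspases), 1.76 (apoptosome), 1.02 (IAP antagonists), 24.0 (IAPs), 19.6 (p53 axis), 0.356 (death receptors), 35.6 (Endog), 0.933 (Dffa) and 15.4 (porins). Ratios of TPM + 1 were 25.9 for Mcl1 to Bcl2l1, 0.0362 for Bcl2l1 to Bax, 0.798 for Mdm2 to Trp53, 0.521 for Apaf1 to Casp9, 534 for Cycs to Apaf1, 0.0268 for Pmaip1 to Mcl1 and 1.64 for anti-apoptotic to BH3-only genes. The 4 members differing more than 2-fold became 11 with a pseudocount of 0.1, 2 at a mean TPM of at least 1, 0 at a mean of at least 5, and 1 (Dffb) with at least 100 reads. No paired analysis was possible because both libraries belong to 1 group.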
